A study of Mus musculus with 12 samples.

Results

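The genes described are 8 enzymes of amine and peptide metabolism that brain vessels can carry, *Ddc*, *Maoa*, *Maob*, *Enpep*, *Anpep*, *Ace*, *Ggt5* and *Alpl*, out of 49315 genes counted and 16637 genes tested. They were listed by symbol, and the list was selected on the large fall of *Ddc* in *Gpr124*ΔC/ΔC against wild type, so values from that comparison are given for the members as a description, without p-values. All 8 passed the filter on low counts. Forebrains of mouse embryos were taken at E15.5, CD31+ endothelial cells were sorted from them while pericytes (CD140b), leukocytes (CD45) and dead cells were gated out, and mRNA was measured by RNA-seq. Each library came from 1 embryo. The controls were 4 embryos labelled wild type (WT). The 4 *Gpr124*ΔC/ΔC embryos were homozygous for an allele in which a V5 tag and a stop codon remove the intracellular tail of the receptor, and the 4 *Gpr124*-/- embryos were homozygous for a lacZ null allele. Both alleles act in every cell of the embryo, and the mutants were bred in separate heterozygous crosses.

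Brain capillaries form a barrier not only through tight junctions and transporters but also through enzymes that alter molecules on their way between blood and brain. In the cytoplasm, aromatic amino acid decarboxylase (*Ddc*) turns L-DOPA into dopamine and 5-hydroxytryptophan into serotonin, and the monoamine oxidases (*Maoa*, *Maob*) on the outer mitochondrial membrane break the amines down. On the cell surface, aminopeptidase A (*Enpep*), aminopeptidase N (*Anpep*) and angiotensin-converting enzyme (*Ace*) trim peptides, a gamma-glutamyl transferase (*Ggt5*) cleaves glutathione conjugates and leukotriene C4, and tissue-nonspecific alkaline phosphatase (*Alpl*) removes phosphate groups, among them that of pyridoxal phosphate, the vitamin B6 form that *Ddc* needs as its cofactor.

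Libraries held 13877572 to 22551163 reads on genes (median 16984382). The mutated gene, listed as *Adgra2*, had 56.1 to 115 CPM (counts scaled by library size and TMM factor) in WT, 61.9 to 142 in *Gpr124*ΔC/ΔC and 8.38 to 12.1 in *Gpr124*-/-. Genes count as called here when the adjusted p is under 0.05 and the log2 fold change lies beyond 1 in either direction. The 8 endothelial markers summed to 3674 to 5551 TPM (which also divides by gene length) over the 12 libraries, and none of the 8 was called in *Gpr124*-/- against WT by edgeR or DESeq2, with 5 at an unadjusted p under 0.05 (edgeR). At an adjusted p under 0.05 alone, *Cdh5* (0.74) and *Pecam1* (0.54) were higher and *Tek* (−0.73) and *Erg* (−0.41) lower there, on the log2 scale. The 6 macrophage markers summed to at most 7.92 TPM. The 5 erythroid markers summed to 5004 to 6995 TPM in WT, 3725 to 5913 in *Gpr124*ΔC/ΔC and 11418 to 33542 in *Gpr124*-/-, and the 5 platelet markers to 231 to 455, 315 to 438 and 497 to 1435 TPM. Of these markers, 3 of 4 tested erythroid genes and 4 of 5 platelet genes were called higher in *Gpr124*-/- than in WT (edgeR). The 11 pericyte and smooth muscle markers summed to 22.6 to 44.3, 13.8 to 33.4 and 30.6 to 43.2 TPM, and the 6 fibroblast markers to 95.5 to 136, 66.7 to 70.9 and 52.5 to 66.8. Of the 10 tested pericyte and smooth muscle markers, *Abcc9* was called higher (2.66, adjusted p = 0.000327) and *Rgs5* lower (−1.47, adjusted p = 0.0186, edgeR) in *Gpr124*-/- against WT. A single noncoding gene, *Gm23935*, took 12.5% of TPM in the WT library JE6 and 14.1% in the *Gpr124*ΔC/ΔC library JE3, against at most 3.04% in the other 10, which lowers the TPM of other genes in JE6 and JE3, so tests were run on counts. Some libraries also share the opening letter of their embryo label (J, K, L or M), whose meaning is not given in the sources used here, and this letter was tried as a term in the model. Letter M holds only *Gpr124*-/- embryos. With this term, *Gpr124*-/- is therefore compared with WT by KE4 against KE8 alone, and with *Gpr124*ΔC/ΔC only through that pair.

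In WT endothelium the members covered a wide range of mRNA levels. On the TPM scale, *Maoa* stood first with 243 ± 42.5 (SD, n = 4), followed by *Ddc* with 17.0 ± 3.69, *Maob* with 7.97 ± 1.37, *Ace* with 6.73 ± 1.29 and *Alpl* with 1.75 ± 0.402. *Ggt5* (0.605 TPM), *Enpep* (0.537 TPM) and *Anpep* (0.369 TPM) were low, with between 5 and 46 reads per WT library. The ranges of *Maoa*, *Ddc* and *Maob* did not overlap in WT, whereas those of *Maob* and *Ace*, of *Alpl* and *Enpep*, and of the 3 lowest genes did. In *Gpr124*ΔC/ΔC the order was *Maoa* (207 ± 42.7 TPM), *Maob* (9.19 ± 2.27), *Ace* (6.88 ± 0.447), *Alpl* (2.07 ± 0.279) and *Ddc* (1.96 ± 0.551), with overlapping ranges for *Maob* and *Ace* and for *Alpl* and *Ddc*. In *Gpr124*-/- it was *Maoa* (83.1 ± 32.1 TPM), *Ace* (12.4 ± 2.34), *Maob* (4.45 ± 2.06), *Ddc* (2.57 ± 1.08) and *Alpl* (1.66 ± 0.553), where *Ace* lay above *Maob* without overlap.

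**Figure D1:**
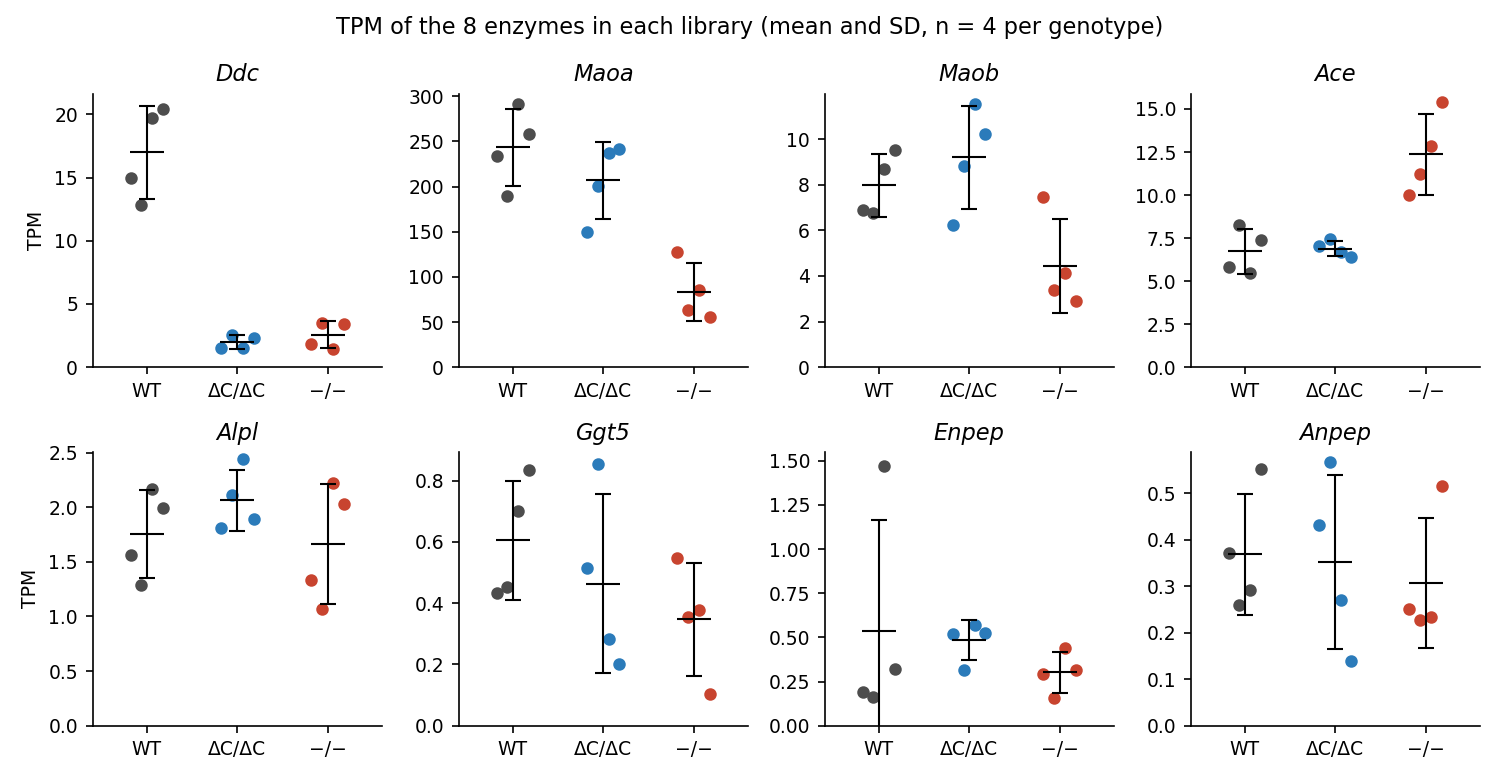
TPM (linear vertical axes that start at 0 and differ between panels) of the 8 enzymes in each of 4 wild-type (WT), 4 ΔC/ΔC and 4 -/- libraries, with the mean (long bar) and SD (error bar, cut off at 0 for *Enpep* in WT). *Ddc* was at 12.8 TPM or more in WT and at 3.53 or less in both mutants, while *Maoa* and *Ace* stood apart in -/- embryos.

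*Ddc* (ENSMUSG00000020182) lies on the minus strand of chromosome 11 of GRCm38, from 11814101 to 11898144. RefSeq gives it a pair of transcription starts, one near the 5′ end of the gene and one inside it, and the gene counts do not tell their transcripts apart. The stretches around the starts of *Ddc*, of *Maoa* and of *Ace* are shown because these members had a genotype whose libraries did not overlap with another's. Each runs 5′ to 3′ on the strand of its gene, from 250 bases before the start to 10 bases after it (RefSeq, GRCm38.p6), and capitals mark TCAAAG, the reverse complement of CTTTGA, the core of sites bound by the TCF/LEF factors of WNT signaling.
*Ddc*, start near the 5′ end (chr11:11898135-11898394, minus strand): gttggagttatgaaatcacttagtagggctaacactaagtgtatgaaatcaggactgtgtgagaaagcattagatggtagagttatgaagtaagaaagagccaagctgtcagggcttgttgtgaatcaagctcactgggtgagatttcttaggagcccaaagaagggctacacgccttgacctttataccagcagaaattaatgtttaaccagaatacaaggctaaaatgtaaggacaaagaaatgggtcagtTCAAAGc
*Ddc*, inner start (chr11:11890399-11890658, minus strand): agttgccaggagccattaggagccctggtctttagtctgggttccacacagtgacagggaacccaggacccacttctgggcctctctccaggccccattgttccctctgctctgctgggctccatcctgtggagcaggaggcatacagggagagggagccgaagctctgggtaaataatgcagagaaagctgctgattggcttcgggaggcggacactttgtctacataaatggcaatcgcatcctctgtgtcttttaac
*Maoa* (chrX:16619448-16619707, plus strand): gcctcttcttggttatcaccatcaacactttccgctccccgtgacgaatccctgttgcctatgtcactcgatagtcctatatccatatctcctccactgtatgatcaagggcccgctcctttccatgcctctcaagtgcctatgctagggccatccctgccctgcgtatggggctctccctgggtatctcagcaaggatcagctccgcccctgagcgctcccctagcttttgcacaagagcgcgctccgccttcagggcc
*Ace*, start near the 5′ end (chr11:105967698-105967957, plus strand): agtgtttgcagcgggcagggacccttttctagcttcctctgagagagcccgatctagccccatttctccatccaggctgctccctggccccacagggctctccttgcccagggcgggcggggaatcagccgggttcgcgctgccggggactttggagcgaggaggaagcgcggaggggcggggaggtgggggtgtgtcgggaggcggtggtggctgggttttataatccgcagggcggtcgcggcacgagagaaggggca
*Ace*, inner start (chr11:105974939-105975198, plus strand): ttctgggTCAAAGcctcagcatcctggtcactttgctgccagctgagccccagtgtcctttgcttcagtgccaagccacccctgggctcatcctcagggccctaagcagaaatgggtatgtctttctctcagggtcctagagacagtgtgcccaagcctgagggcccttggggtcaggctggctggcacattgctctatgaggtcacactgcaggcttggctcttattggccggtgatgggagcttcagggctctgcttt
Searched on both strands over 300 bases, from 250 before to 50 after the start, these letters were found in 2 of 9 windows of the 6 members with a RefSeq entry, 3 bases past the 5′ start of *Ddc* and 243 bases before the inner start of *Ace*. Among all 32851 promoter windows of this length, 16% held them, and a match describes the letters only. The 50 bases after the inner start of *Ace* were not found in a GENCODE transcript of the gene, unlike those after the other starts shown. *Maob* and *Ggt5* were not matched to an entry.

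*Ddc*, the decarboxylase, was low in both mutants. Its CPM was 23.6, 22.2, 30.2 and 31.2 in the WT libraries JE1, JE6, KE8 and LE6. In the *Gpr124*ΔC/ΔC libraries JE3, JE4, LE2 and LE5 it was 2.59, 3.79, 2.11 and 3.25, and in the *Gpr124*-/- libraries KE4, ME1, ME4 and ME5 it was 2.76, 5.68, 2.12 and 5.50. Every mutant library lay below every WT library, and the mutants overlapped each other. Mean TPM was 11.5% of WT in *Gpr124*ΔC/ΔC and 15.1% in *Gpr124*-/-. Here and for every gene below, fewer expressing cells and less RNA per cell cannot be told apart in sorted bulk samples.

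The log2 fold change of *Ddc* CPM in *Gpr124*ΔC/ΔC against WT was −3.19 (standard error 0.31), the value that drew attention to the gene. Against WT, *Gpr124*-/- *Ddc* fell by 2.75 on the log2 scale (standard error 0.30, adjusted p = 3.49e-05, from the quasi-likelihood test of edgeR after Benjamini-Hochberg adjustment over all tested genes), a comparison that uses the same 4 WT libraries. Over the 25 other settings of the analysis, the fall in *Gpr124*-/- stayed between 2.36 and 3.45 on the log2 scale, with adjusted p of at most 0.00235. Between the mutants the difference was 0.44 (95% interval −0.23 to 1.11, edgeR). It is given without a p-value, because it uses the *Gpr124*ΔC/ΔC libraries whose low values led to the choice of *Ddc*. The difference was −0.31 once the label letter was added to the model, so these data give no direction for it. The sum of 5 neuron markers was 46.8 to 98.3 TPM in WT, 60.9 to 98.5 in *Gpr124*ΔC/ΔC and 74.2 to 105 in *Gpr124*-/-. Of the 5, only *Stmn2* was called in *Gpr124*-/- against WT (edgeR), higher, with a mean of 34.4 TPM against 14.2. *Th*, the enzyme that makes L-DOPA and a marker of dopamine neurons (looked up after its values were seen), had 0.303 ± 0.174 TPM in WT, 0.0438 ± 0.0509 in *Gpr124*ΔC/ΔC and 0.211 ± 0.170 in *Gpr124*-/- (SD, n = 4), from at most 8 reads per library. The part of such cells in *Ddc* was not tested. *Fignl1* and *Grb10*, the neighbors of *Ddc*, did not fall with it. *Grb10*, an adaptor of insulin receptor signaling, rose by 0.97 (log2) in *Gpr124*-/- (edgeR, adjusted p = 1.12e-05) and by 0.42 in *Gpr124*ΔC/ΔC (adjusted p = 0.0220), and *Fignl1* had log2 fold changes of 0.33 and 0.38 (edgeR, adjusted p = 0.282 and 0.413).

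The monoamine oxidases lie next to each other on the X chromosome, *Maoa* (ENSMUSG00000025037) from 16619698 to 16687818 on the plus strand and *Maob* (ENSMUSG00000040147) from 16709282 to 16817366 on the minus strand of GRCm38. *Maoa*, which prefers serotonin and noradrenaline as substrates, was the most abundant member in every genotype. Its CPM was 345, 308, 416 and 368 in WT, 242, 275, 310 and 324 in *Gpr124*ΔC/ΔC, and 176, 95.2, 119 and 83.3 in *Gpr124*-/-, in the same library order as for *Ddc*. The *Gpr124*-/- libraries lay below all others without overlap, while the *Gpr124*ΔC/ΔC and WT ranges overlapped. *Maoa* in *Gpr124*-/- fell by 1.60 (log2) against WT (standard error 0.20, adjusted p = 0.000105, edgeR), to 34.1% of the WT mean TPM. *Gpr124*ΔC/ΔC embryos gave −0.32 on the log2 scale against WT (standard error 0.20), with 85.1% of the WT mean TPM. Between the mutants, *Maoa* was again lower in *Gpr124*-/-, with a log2 fold change of −1.28 (standard error 0.20, adjusted p = 0.00214, edgeR), which was −0.95 (adjusted p = 0.0958) once the label letter was added to the model. Adjusted p ran from 2.28e-07 to 0.0958 over the 25 other settings for this difference, and to at most 0.00426 for the fall against WT.

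*Maob*, which prefers phenylethylamine, was about as low as *Ace* in WT. Its CPM was 6.80, 7.31, 8.32 and 9.09 in WT, 6.76, 8.08, 10.1 and 9.14 in *Gpr124*ΔC/ΔC, and 6.90, 3.38, 3.83 and 2.87 in *Gpr124*-/-. The *Gpr124*-/- library KE4 reached the range of the other genotypes, and ME1, ME4 and ME5 lay below all of them. The log2 fold change in *Gpr124*-/- was −0.89 against WT (standard error 0.25, adjusted p = 0.0240, edgeR) and −1.0 against *Gpr124*ΔC/ΔC (standard error 0.25, adjusted p = 0.0260, edgeR). The value for *Gpr124*ΔC/ΔC against WT was 0.11 (standard error 0.25). With 1 library left out the value against WT stayed between −0.73 and −1.22, and its adjusted p (edgeR) exceeded 0.05 without KE8 (−0.85, adjusted p = 0.0504), LE6 (−0.82, adjusted p = 0.0638), ME1 (−0.80, adjusted p = 0.0710), ME4 (−0.84, adjusted p = 0.0687) or ME5 (−0.73, adjusted p = 0.0626). Without KE4 it was −1.22 (adjusted p = 0.000734, edgeR). With the label letter in the model it was −0.27, from KE4 against KE8 alone, as the other *Gpr124*-/- libraries are all of letter M. Against *Gpr124*ΔC/ΔC, adjusted p likewise exceeded 0.05 without LE2 (−0.91, adjusted p = 0.0748), LE5 (−0.97, adjusted p = 0.0692), ME1 (−0.91, adjusted p = 0.0844), ME4 (−0.96, adjusted p = 0.0765) or ME5 (−0.85, adjusted p = 0.0693, edgeR). With the label letter in the model, through the same pair, this difference was −0.35. Platelets carry *Maob*, and the platelet markers were at their highest in *Gpr124*-/-, where *Maob* was low. *Xist*, expressed from the inactive X chromosome of female embryos, was above 1 TPM in 2 of 4 WT, 3 of 4 *Gpr124*ΔC/ΔC and 2 of 4 *Gpr124*-/- libraries. The part of these in the X-linked members was not tested.

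Of the surface peptidases, *Ace*, which makes angiotensin II and degrades bradykinin, was the member that was higher in *Gpr124*-/-. The gene (ENSMUSG00000020681) lies on the plus strand of chromosome 11 from 105967945 to 105989964. Its CPM was 10.9, 16.9, 9.97 and 13.3 in WT, 14.5, 12.9, 11.1 and 10.9 in *Gpr124*ΔC/ΔC, and 17.5, 21.4, 22.7 and 29.1 in *Gpr124*-/-, the last without overlap with either other genotype. Mean TPM in *Gpr124*-/- was 184% of WT. *Ace* rose by 0.83 on the log2 scale against WT (standard error 0.19, adjusted p = 0.00844, edgeR) and by 0.88 against *Gpr124*ΔC/ΔC (standard error 0.20, adjusted p = 0.0147, edgeR), both short of a doubling of expression. For *Gpr124*ΔC/ΔC against WT the log2 fold change was −0.05 (standard error 0.20). With the label letter in the model, where *Gpr124*-/- enters only through KE4 against KE8, the differences were 0.81 and 0.93. Without the *Gpr124*ΔC/ΔC library LE5 the one between mutants was 0.82 (edgeR, adjusted p = 0.0501). Over all other settings the log2 fold change ran from 0.70 to 1.004 against WT, narrowly past a doubling at its highest, and from 0.71 to 0.98 between the mutants. Exons of *Ace* share 295 bases (5.58% of its exon length) with the antisense gene *Gm11651*, and whether counting used strand is not given in the sources used here.

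The aminopeptidases and *Ggt5* were too low for fine comparisons. *Enpep* (ENSMUSG00000028024, chromosome 3, 129269175 to 129332720), which turns angiotensin II into angiotensin III and is a known pericyte gene of brain, had 0.30 to 0.52 CPM in 3 WT libraries and 2.38 CPM in the WT library KE8. It had 0.49 to 0.95 CPM in *Gpr124*ΔC/ΔC and 0.27 to 0.69 CPM in *Gpr124*-/-, so all genotypes overlapped. Its log2 fold change in *Gpr124*-/- against WT was −0.82 (95% interval −2.16 to 0.53, edgeR, adjusted p = 0.426), and without KE8 it was 0.40. KE8 also had the highest sum of the 11 pericyte and smooth muscle markers, 44.3 TPM, close to the 43.2 of the *Gpr124*-/- library ME4. Of these 11 markers, 2 were highest in KE8 and 7 in a *Gpr124*-/- library. The sum of the 6 fibroblast markers was 136 TPM in KE8 against at most 99.6 elsewhere, and 5 of the 6 were highest there. The part of such cells in *Enpep* was not tested.

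**Figure D2:**
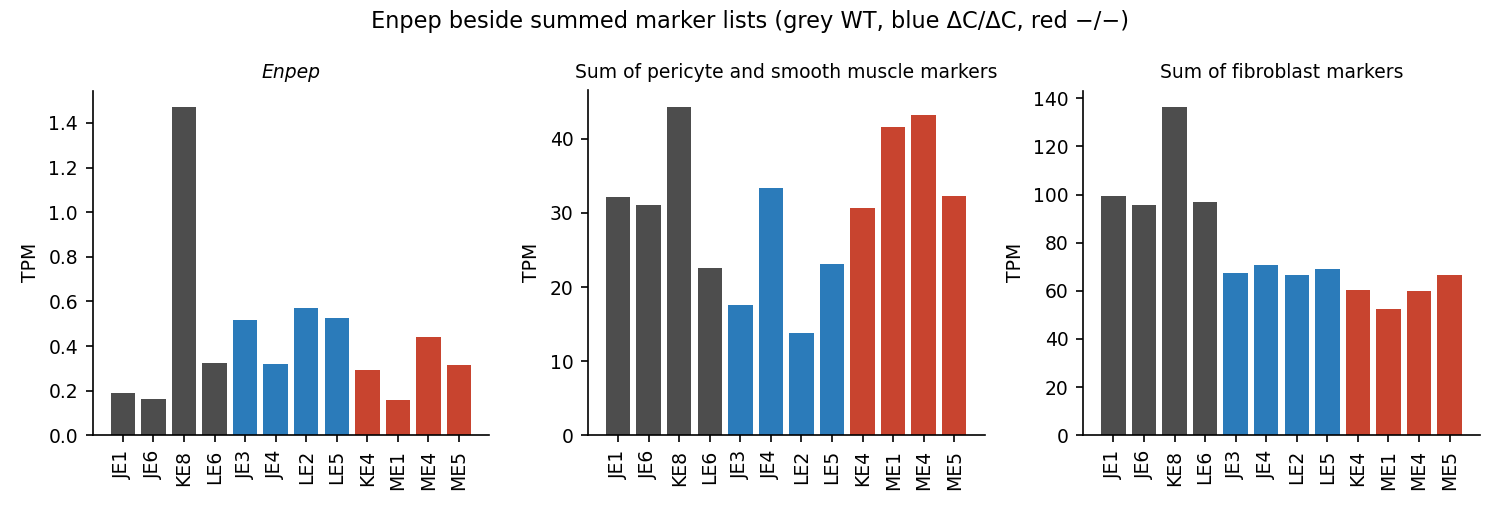
TPM of *Enpep* and summed TPM of the 11 pericyte and smooth muscle markers and of the 6 fibroblast markers in each of the 12 libraries (bars from 0, named by embryo, grey WT, blue ΔC/ΔC, red -/-). The WT library KE8 had the highest value in each panel, 1.47, 44.3 and 136 TPM, but in the middle panel the -/- library ME4 came close with 43.2.

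*Anpep* (ENSMUSG00000039062, chromosome 7, 79821803 to 79861059), a broad aminopeptidase also known from pericytes, had 0.41 to 0.78 CPM in WT, 0.18 to 0.77 CPM in *Gpr124*ΔC/ΔC and 0.32 to 0.76 CPM in *Gpr124*-/-. The *Gpr124*-/- libraries gave a log2 fold change of −0.29 against WT (95% interval −1.30 to 0.72, edgeR, adjusted p = 0.731). *Ggt5* (ENSMUSG00000006344, chromosome 10, 75589340 to 75617200) had 0.73 to 1.35 CPM in WT, 0.31 to 1.34 in *Gpr124*ΔC/ΔC and 0.18 to 0.86 in *Gpr124*-/-, with a log2 fold change of −0.84 (95% interval −1.91 to 0.23, edgeR, adjusted p = 0.288) in *Gpr124*-/-. Against WT, the *Gpr124*ΔC/ΔC values were −0.18 for *Enpep*, −0.11 for *Anpep* and −0.43 for *Ggt5*, each below its standard error of 0.47 to 0.61. Between the mutants, log2 fold changes of −0.63, −0.18 and −0.41 had adjusted p of 0.592, 0.862 and 0.676 (edgeR). At this depth the intervals against WT do not exclude values below −1 for any of the 3.

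*Alpl* (ENSMUSG00000028766, chromosome 4, 137741733 to 137796384) was measured more precisely and overlapped among the 3 genotypes. Its CPM was 2.22, 2.02, 3.0 and 2.75 in WT, 2.84, 2.81, 3.09 and 2.45 in *Gpr124*ΔC/ΔC, and 1.78, 1.55, 3.0 and 2.93 in *Gpr124*-/-. The log2 fold change in *Gpr124*-/- was −0.10 against WT (95% interval −0.63 to 0.43, edgeR, adjusted p = 0.826) and −0.26 against *Gpr124*ΔC/ΔC (95% interval −0.80 to 0.27, edgeR, adjusted p = 0.554). It was 0.16 (standard error 0.24) in *Gpr124*ΔC/ΔC against WT.

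**Figure D3:**
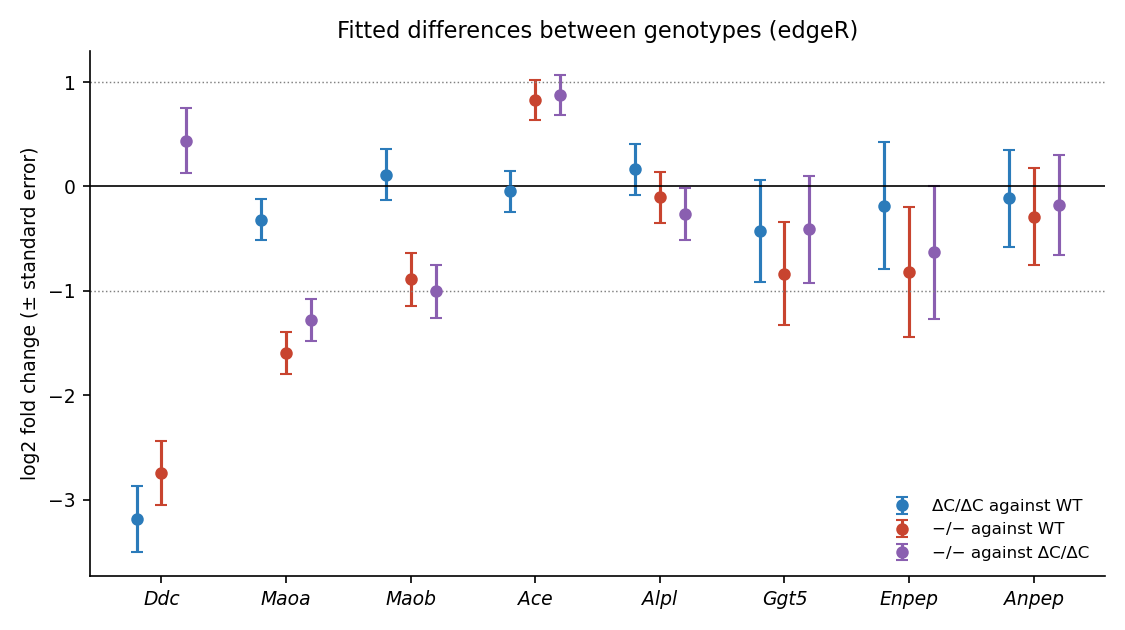
Log2 fold changes of the 8 enzymes from edgeR, with standard errors as bars, for ΔC/ΔC against WT (blue), -/- against WT (red) and -/- against ΔC/ΔC (purple), and dotted lines at −1 and 1. *Ddc* was at −3.19 and −2.75 in the mutants, whereas *Maoa* was at −1.60 in -/- and −0.32 in ΔC/ΔC.

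In *Gpr124*-/- against WT, 2 of the 8 members were called, *Ddc* and *Maoa*, both lower, where 9.88% of all tested genes were called. At an adjusted p under 0.05 alone, 4 of 8 passed, with *Maob* lower and *Ace* higher, against 19.8% of all genes. For 3 of 8 (*Ddc*, *Maoa* and *Ace*) the 4 *Gpr124*-/- and 4 WT libraries did not overlap, as for 22.9% of all genes. The median log2 fold change of the 8 was −0.83, against −0.01 over all tested genes. *Ddc*, which is in each of these counts, was chosen on a fall from the same WT libraries. The members were also chosen with earlier results known, so the counts and the median are not read as a result about the list.

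In *Gpr124*ΔC/ΔC against WT, *Ddc* was chosen for its fall, so that 1 of 8 members met each criterion by that choice and nothing is read from it. The shares of all genes called, with an adjusted p under 0.05 and without overlap were 1.92%, 4.09% and 11.3%. The median of the members was −0.15, against 0.01 over all tested genes. Between *Gpr124*-/- and *Gpr124*ΔC/ΔC, 2 of 8 were called (*Maoa* and *Maob*, 4.6% of all genes), 3 had an adjusted p under 0.05 (*Ace* as well, 8.82% of all genes), and 2 (*Maoa* and *Ace*) did not overlap (13.9% of all genes). *Maob* lay at the fold change threshold there and was called in 11 of 25 other settings. Set side by side, the *Gpr124*-/- and *Gpr124*ΔC/ΔC values against the shared WT libraries were −2.75 and −3.19 for *Ddc*, −1.60 and −0.32 for *Maoa*, −0.89 and 0.11 for *Maob*, and 0.83 and −0.05 for *Ace*.

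By label letter, WT and *Gpr124*ΔC/ΔC embryos shared J and L, while K stood for 1 WT and 1 *Gpr124*-/- embryo. The other 3 *Gpr124*-/- embryos were all of M, where letter and genotype cannot be told apart. Within letters, log2 CPM of *Ddc* in *Gpr124*ΔC/ΔC minus WT was −2.82 in J and −3.51 in L, and in *Gpr124*-/- minus WT it was −3.40 in K. For *Maoa* these differences were −0.34 in J, −0.21 in L and −1.24 in K. In K, *Maob* differed by −0.27 and *Ace* by 0.81.

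Of the 9988 tested genes averaging 8 CPM or more, those whose pattern over the 12 libraries came nearest to a called member were ranked by the root mean square difference of centered log2 CPM. *Ddc* was nearest to *Tgfa* (0.57), *Wnt5a* (0.58) and *Tmem154* (0.62). *Tgfa*, a ligand of the EGF receptor, had log2 fold changes of −3.08 in *Gpr124*-/- and −2.80 in *Gpr124*ΔC/ΔC against WT, and *Wnt5a*, a secreted WNT ligand, of −3.32 and −2.48. *Maoa* lay closer to its nearest gene, *Abcb1a*, with a difference of 0.07, then *Serpinb9* (0.14) and *Foxl2os* (0.15). *Abcb1a* encodes P-glycoprotein, the main drug efflux pump of brain capillaries, and had log2 fold changes of −1.65 and −0.44, next to the −1.60 and −0.32 of *Maoa*. *Maob* was nearest to *Sesn1* (0.14), *Cttnbp2* (0.14) and *Serinc3* (0.15), and *Maoa* and *Maob* differed from each other by 0.31. These values describe likeness over 12 libraries that share genotype and depth, and carry no test.

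Around the members, 8 lists of genes of the same pathways held 100 genes, of which 63 were tested. In *Gpr124*-/- against WT, 6 of the 63 were called higher and 6 lower, 19.0% against the 9.88% of all genes, with a median log2 fold change of 0.08. Against WT, *Gpr124*ΔC/ΔC had 1 called higher and 2 lower (4.76% against 1.92%), with a median of −0.08. Between the mutants 3 were higher and 3 lower in *Gpr124*-/- (9.52% against 4.6%), with a median of 0.05. The lists were chosen with earlier results of these data known, so these shares are not read as an enrichment.

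Upstream of the amines, 5 of 12 genes for synthesis and its tetrahydrobiopterin cofactor were tested and none was called in any comparison by edgeR or DESeq2. At an unadjusted p under 0.05, edgeR gave 2 of the 5 in *Gpr124*-/- and 1 in *Gpr124*ΔC/ΔC against WT, and 0 between the mutants, where 30.6%, 14.4% and 22.8% of all tested genes had such a p. The list had median log2 fold changes of −0.07 and −0.13 in *Gpr124*-/- and *Gpr124*ΔC/ΔC. Downstream of the monoamine oxidases, 3 of 10 tested breakdown genes were called in *Gpr124*-/-, and the list median was 0.08. *Aldh9a1*, an aldehyde dehydrogenase of amine breakdown, went from 60.1 ± 3.39 TPM (SD, n = 4) in WT to 38.6 ± 7.51 in *Gpr124*ΔC/ΔC and 27.1 ± 3.19 in *Gpr124*-/-. It fell by 1.19 (log2) in *Gpr124*-/- (edgeR, adjusted p = 3.26e-06) and by 0.73 in *Gpr124*ΔC/ΔC (edgeR, adjusted p = 0.00101). *Aldh2*, the mitochondrial aldehyde dehydrogenase, rose from 5.98 ± 1.58 to 16.7 ± 6.67 TPM in *Gpr124*-/- (log2 fold change 1.46, edgeR, adjusted p = 0.00241). Its log2 fold change was 0.53, short of the threshold, with the label letter in the model, where the comparison is KE4 against KE8 alone. *Sult1a1*, a sulfotransferase of phenols and catechols, rose by 1.19 (log2) in *Gpr124*-/- (edgeR, adjusted p = 0.00218) and by 0.92 in *Gpr124*ΔC/ΔC (adjusted p = 0.0363). *Aoc3*, a surface amine oxidase known from vascular smooth muscle, was the 1 breakdown gene called in *Gpr124*ΔC/ΔC (1.15, edgeR, adjusted p = 0.0124), from 0.714 ± 0.201 to 1.69 ± 0.325 TPM, but it was called in only 18 of 24 other settings, with log2 fold changes down to 0.65 and adjusted p up to 0.0943. Without the WT library LE6 it was 0.99 (adjusted p = 0.0389, edgeR). Of 10 tested pericyte and smooth muscle markers, 0 were called in *Gpr124*ΔC/ΔC by edgeR, 3 had an unadjusted p under 0.05 and DESeq2 called 2, their median log2 fold change was −0.45, and the part of such cells in *Aoc3* was not tested.

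Of the monoamine transporters, 5 of 9 were tested and 2 were called in *Gpr124*-/-, both higher. *Slc6a4*, the serotonin transporter, had 9.18, 8.87, 10.9 and 16.9 TPM in WT, 13.1, 12.9, 10.1 and 14.1 in *Gpr124*ΔC/ΔC, and 17.5, 66.0, 58.6 and 60.7 in *Gpr124*-/-. The 3 high libraries were ME1, ME4 and ME5, which also had the most *Pf4*, the platelet factor (538 to 811 TPM, against 316 in KE4 and at most 255 elsewhere). Platelets carry *Slc6a4*, and the part of platelet RNA in its rise was not tested. Its log2 fold change was 2.13 against WT (edgeR, adjusted p = 0.000966) and 0.63, from KE4 against KE8 alone, once the label letter was added to the model. *Slc6a3*, the dopamine transporter, rose from 1.33 ± 0.639 to 6.69 ± 1.97 TPM (SD, n = 4), a log2 fold change of 2.30 (edgeR, adjusted p = 0.000750). Between the mutants, both were higher in *Gpr124*-/- as well, with 2.06 and 2.09 (edgeR, adjusted p = 0.00382 and 0.00438). These values became 0.60 and 2.56 with the letter in the model, again through KE4 against KE8. None of the 5 was called in *Gpr124*ΔC/ΔC against WT by edgeR or DESeq2, with 1 at an unadjusted p under 0.05 (edgeR). The list medians in *Gpr124*-/- and *Gpr124*ΔC/ΔC were 0.73 and 0.07.

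Of the other surface peptidases, 9 of 18 were tested and 2 were called in *Gpr124*-/-, both lower, with a list median of −0.29. *Dpp4*, which clips dipeptides from incretins and chemokines, had 12.3, 19.2, 36.7 and 26.3 TPM in WT, 4.04, 9.35, 12.7 and 19.7 in *Gpr124*ΔC/ΔC, and 2.03, 1.01, 1.97 and 1.37 in *Gpr124*-/-. The *Gpr124*-/- libraries lay below all others, and those of the other genotypes overlapped. Fibroblasts can also carry *Dpp4*, and their summed markers were lower in *Gpr124*-/- than in WT without overlap, as given above. Most of that sum was *Fbln1*, with a mean of 85.7 TPM in WT and 50.7 in *Gpr124*-/-. Of 5 tested fibroblast markers, 1 was called lower there (edgeR) and 2 did not overlap. The part of such cells in *Dpp4* was not tested. *Dpp4* fell by 3.92 on the log2 scale against WT (standard error 0.44, adjusted p = 3.61e-05, edgeR) and by 2.77 against *Gpr124*ΔC/ΔC (edgeR, adjusted p = 0.00184), and it was called in 25 of 25 other settings in both. For *Dpp4* in *Gpr124*ΔC/ΔC against WT the value was −1.15 (edgeR, adjusted p = 0.141), and the list had 0 genes called by edgeR, 2 at an unadjusted p under 0.05 and 1 called by DESeq2. *Ggt1*, the classic gamma-glutamyl transferase of brain capillaries and a paralog of *Ggt5*, went from 2.01 ± 0.221 TPM (SD, n = 4) in WT to 1.24 ± 0.493 and 0.256 ± 0.252 in the mutants. It fell by 2.94 (log2) in *Gpr124*-/- against WT (edgeR, adjusted p = 0.00118), and it fell by 2.15 against *Gpr124*ΔC/ΔC (adjusted p = 0.0229), where adjusted p exceeded 0.05 without JE4 (0.0652), LE5 (0.0659), ME1 (0.0578) or ME5 (0.0524). That difference was called in 15 of 24 other settings, with adjusted p up to 0.727 with the label letter in the model and log2 fold changes as small as −0.83 with limma on log2(TPM + 1).

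None of the 13 intracellular peptidases and neither of the 2 tested of 8 angiotensin system genes was called in any comparison by edgeR or DESeq2. At an unadjusted p under 0.05 edgeR gave 5, 3 and 3 of the 13 and 1, 0 and 0 of the 2, in *Gpr124*-/- against WT, *Gpr124*ΔC/ΔC against WT and between the mutants, next to the same shares of all genes as above. Medians in *Gpr124*-/- were 0.01 and 0.20. Of the 10 genes of glutathione and leukotriene metabolism, on whose products *Ggt5* acts, 2 were called in *Gpr124*-/- and the median was 0.35. *Ltc4s*, leukotriene C4 synthase, fell by 2.06 on the log2 scale (edgeR, adjusted p = 0.00360), from 6.34 ± 2.01 to 1.52 ± 0.722 TPM, and *Abcc1*, which exports leukotriene C4 and glutathione conjugates, rose by 1.18 (edgeR, adjusted p = 0.000240), from 2.05 ± 0.173 to 4.77 ± 0.945 TPM. This list, in *Gpr124*ΔC/ΔC against WT and between the mutants, had 0 genes called by edgeR or DESeq2, with 4 and 3 at an unadjusted p under 0.05 (edgeR).

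Next to *Alpl*, 9 of 17 genes for surface phosphatases and nucleotidases, phosphate carriers and vitamin B6 were tested, and 3 were called in *Gpr124*-/-. *Pdxk*, the kinase that makes pyridoxal phosphate, had 17.5, 13.6, 25.7 and 21.3 TPM in WT, 6.95, 7.62, 13.2 and 10.2 in *Gpr124*ΔC/ΔC, and 6.14, 3.11, 5.01 and 5.31 in *Gpr124*-/-. The mutant ranges lay below WT and did not overlap each other. *Pdxk*, which supplies the cofactor of *Ddc*, fell in both mutants, by 2.03 (log2) in *Gpr124*-/- (edgeR, adjusted p = 3.61e-05) and by 1.12 in *Gpr124*ΔC/ΔC (adjusted p = 0.0101), the latter −0.98 (adjusted p = 0.0277) without KE8. The fall in *Gpr124*ΔC/ΔC was called in 20 of 25 other settings, with adjusted p up to 0.112 in limma without a filter. *Enpp2*, the secreted enzyme autotaxin that makes lysophosphatidic acid, was far more abundant, with 433 ± 40.5 TPM (SD, n = 4) in WT, 226 ± 48.1 in *Gpr124*ΔC/ΔC and 63.9 ± 26.6 in *Gpr124*-/-. It fell by 2.82 (log2) in *Gpr124*-/- (edgeR, adjusted p = 1.86e-06), by 1.03 in *Gpr124*ΔC/ΔC (adjusted p = 0.0107), and by 1.78 between the mutants (adjusted p = 0.000364). The value in *Gpr124*ΔC/ΔC was −0.99 without KE8 (adjusted p = 0.0282) and −0.95 without JE3 (adjusted p = 0.0341, edgeR), below the fold change threshold. It was called in 18 of 25 other settings, with adjusted p up to 0.105 in limma without a filter. *Slc20a1*, a phosphate carrier, rose by 1.12 in *Gpr124*-/- (edgeR, adjusted p = 5.74e-06) and by 0.53 in *Gpr124*ΔC/ΔC (adjusted p = 0.00799). Among the called list genes, *Aldh9a1*, *Sult1a1*, *Slc6a3*, *Dpp4*, *Pdxk* and *Enpp2* were called in *Gpr124*-/- against WT in 25 of 25 other settings. With the label letter in the model, from KE4 against KE8 alone, the values there were −2.66 for *Ggt1*, −2.19 for *Ltc4s*, 1.09 for *Abcc1* and 0.83, under the threshold, for *Slc20a1*. *Abcc1* was called in 21 of 25 other settings, and in 3 limma fits on log2(TPM + 1) its log2 fold change was 0.89 to 0.91, under the threshold. The list medians were 0.57 and −0.11 in *Gpr124*-/- and *Gpr124*ΔC/ΔC.

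**Figure D4:**
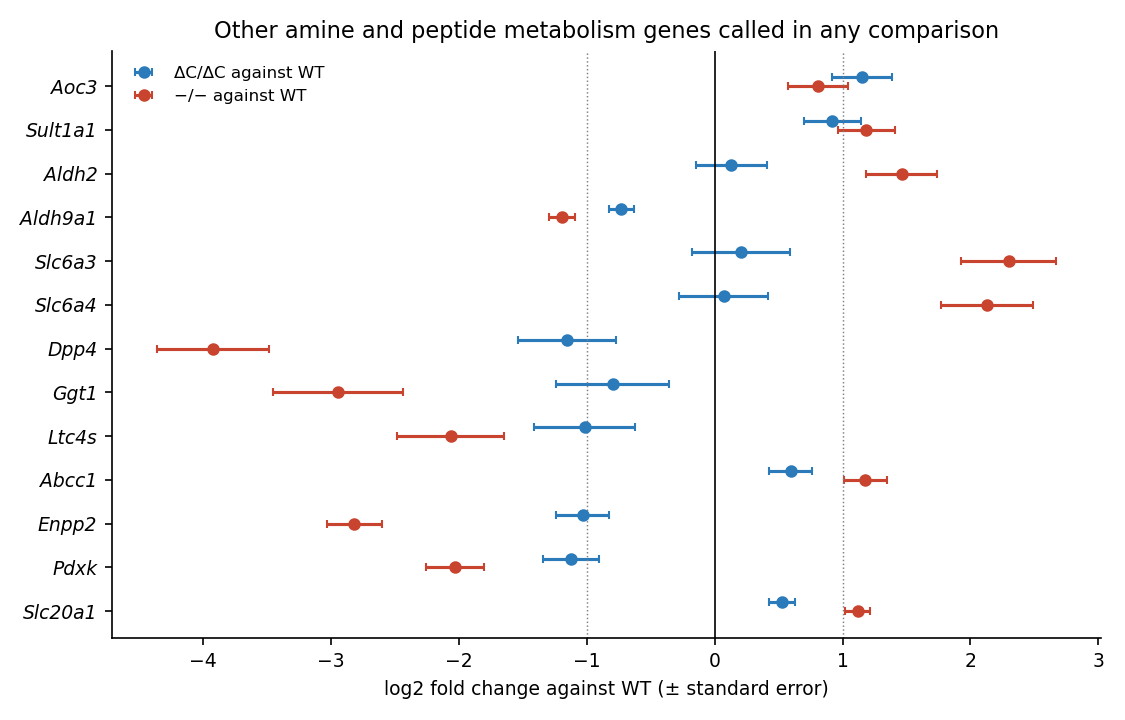
Log2 fold changes against WT (edgeR, bars are standard errors) of the 13 genes of the pathway lists called in any comparison, in ΔC/ΔC (blue) and -/- (red), with dotted lines at −1 and 1. *Dpp4*, *Ggt1* and *Enpp2* had the lowest values in -/- (−3.92, −2.94 and −2.82), and *Slc6a3* and *Slc6a4* the highest (2.30 and 2.13).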

How the data were processed

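RNA-seq was analyzed for 12 libraries, 4 per genotype. Per the paper's methods, RNA was isolated with the PicoPure kit, poly(A)-selected and sequenced in paired-end reads at Genewiz, and the labels name SMART-Seq chemistry for the libraries. The authors deposited raw read counts per gene and TPM values, which matched TPM recomputed from the counts and gene lengths to within 0.005% for values above 1 TPM. The submitters' processing notes name bcl2fastq 2.17 and mm10. The aligner, the counting program and the strand setting are not given in the sources used here. Of 49315 gene identifiers, 49056 were matched to symbols and positions in GENCODE vM21 and 259 were not.

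For the counts, edgeR 4.0.16 was run in R 4.3.3 (filterByExpr by genotype with a count minimum of 10 and a total minimum of 15, TMM factors from 0.946 to 1.04, glmQLFit and glmQLFTest on all 12 libraries with genotype as the term), and p-values were adjusted by Benjamini-Hochberg over 16637 genes. CPM used TMM-scaled library sizes, and log2 CPM a prior count of 2. Alternatives were DESeq2 1.42.0, limma 3.58.1 on log2(TPM + 1) and log2(TPM + 0.1), other scalings, filters, covariates and thresholds, and each library left out in turn. TPM without *Gm23935* and leaving out JE3 and JE6 together were added after seeing the data. The edgeR, DESeq2 and limma log2(TPM + 1) fits of *Gpr124*-/- against wild type were tested on simulated data with known changes.

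The members and the gene lists were chosen with earlier results of these data known. Named genes were the members, list genes called in any comparison (at most 4 per list, by absolute log2 fold change), the 3 nearest patterns of each called member, and *Adgra2*. Outside this rule, and chosen after values were seen, *Th*, the neighbors *Fignl1* and *Grb10*, *Xist*, *Pf4*, *Gm23935*, *Gm11651* and some cell markers are also named. Embryos are separate animals, and their number of 4 per genotype limits the precision. Tables and plots were made in Python 3.11.15 with pandas 2.3.3 and matplotlib 3.10.9.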

Additional observations from a re-analysis of the deposited data

Results flagged for a closer look

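In 2 of 24 groups (8 genes in 3 genotypes), 1 of the 4 libraries stood far from the other 3 by the gap ratio of Dixon's test, which chance gives in about 1 of 20 groups, or 1.2 of 24. *Enpep* had 2.38 CPM in the WT library KE8, where the next highest WT library had 0.519. *Anpep* had 0.761 CPM in the *Gpr124*-/- library ME5, where the next highest had 0.345. Both genes had few reads in every library.

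For 3 members the mutants differed from each other in the edgeR fit, so that their changes from the shared WT libraries were unequal. The log2 fold change of *Gpr124*-/- minus *Gpr124*ΔC/ΔC was −1.28 for *Maoa* (adjusted p = 0.00214, edgeR), −1.0 for *Maob* (adjusted p = 0.0260, edgeR) and 0.88 for *Ace* (adjusted p = 0.0147, edgeR). No *Gpr124*ΔC/ΔC embryo shared a label letter with a *Gpr124*-/- embryo, and letter and genotype cannot be told apart where they do not overlap. With the letter in the model, through KE4 against KE8, the differences were −0.95 for *Maoa* and −0.35 for *Maob*, while that of *Ace* was not smaller.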

How the results depend on the processing

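*Ddc* and *Maoa* in *Gpr124*-/- against WT kept their direction and call in 25 of 25 alternatives each. With the label letter, which WT shares with some embryos of either mutant, in the model, the genes called in *Gpr124*-/- against WT went from 1644 to 846 and those between the mutants from 766 to 209, with 0 of the members in place of 2; edgeR then gave −0.31 for *Ddc* and 0.00193 for *Ggt5* between the mutants and 0.97 for *Enpep* in *Gpr124*ΔC/ΔC against WT. In that fit *Gpr124*-/- enters only through KE4 against KE8, and the cause was not tested. With no fold change threshold, the counts were 3295 (4 of the members), 680 and 1468 genes. With limma on log2(TPM + 1), 482 genes were called between the mutants, 386 with no filter and 508 without *Gm23935*, and 193 in *Gpr124*ΔC/ΔC with no filter, in place of 320. Between the mutants, 1 member in place of 2 was called in these 3 limma fits, with RLE size factors, with no filter on low counts, with DESeq2 and with only the 2 compared genotypes, and the member lost was *Maob*. *Ace* in *Gpr124*ΔC/ΔC against WT, −0.05 by edgeR, was 0.0417 with limma on log2(TPM + 1), with or without the filter, 0.0432 without *Gm23935*, 0.0492 on log2(TPM + 0.1) and 0.0371 without JE3 and JE6, and *Enpep* was 0.0207 with limma and no filter. *Anpep* between the mutants was 0.0343 without JE3 and JE6.

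With each library left out in turn, the calls ran from 1450 to 1824 genes in *Gpr124*-/- against WT (2 to 3 members), in *Gpr124*ΔC/ΔC from 257 to 336, and from 506 (without ME5) to 1008 between the mutants (1 to 2 members). Values not past the threshold changed sign: in *Gpr124*-/- against WT *Enpep* ran from −1.11 to 0.40 and *Alpl* from −0.25 to 0.0376, in *Gpr124*ΔC/ΔC against WT *Enpep* ran from −0.48 to 1.02, *Anpep* from −0.38 to 0.16 and *Ace* from −0.15 to 0.12, and between the mutants *Anpep* ran from −0.56 to 0.10 and *Ggt5* from −0.69 to 0.00691.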
